A study of Caenorhabditis elegans with 36 samples.

Results

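The response of wild-type *Caenorhabditis elegans* to culture at 25°C was measured in 6 mRNA-seq libraries, chosen by their labels from the 36 samples of the series, of which 12 are mRNA-seq libraries. Wild-type N2 worms cultured at 25°C and collected about 48 h after synchronized L1 larvae were plated (3 libraries) were set against N2 worms cultured at 20°C and collected after about 68 h (3 libraries). All were labelled as whole day 1 adults, and each library was made from a pool of animals grown on enriched peptone plates. Temperature and time in culture changed together, so an effect of heat and an effect of a different developmental age cannot be told apart. Poly(A) RNA was sequenced, and a library held 21675767 to 28472933 counts at 25°C and 18569724 to 24219091 counts at 20°C. The other 6 mRNA-seq libraries, of *mut-16(pk710)* mutants at 25°C and 20°C (3 each), entered the same filter and fit.

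The first principal component of the 6 libraries carried 71.2% of the variance and separated both temperatures, and the second carried 10.7% and set replicate 2 at 20°C apart from the other libraries, with a score of -34.9 against 23.2 and 12.255 for replicates 1 and 3. Levels are given as RPM, the counts of a gene scaled to a library total of 1000000, and are not divided by transcript length, so that they compare libraries and not genes. The 3 libraries of a group were described as biological replicates, and the tests measure the spread between replicates, estimated over all 12 mRNA-seq libraries.

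The heat shock response is the transcription of chaperone genes when proteins unfold. It is driven by the factor HSF-1, which binds arrays of short TTC and GAA units in promoters, and in *C. elegans* the small heat shock proteins of the hsp-16 family are its most inducible products. 25°C lies near the upper end of the range in which the worm stays fertile, and is used as a chronic mild heat rather than as a heat shock. In adult hermaphrodites, the germline has by this age switched from making sperm, which are stored, to making oocytes.

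Of 14623 genes with enough counts to be tested, 3302 were higher at 25°C (22.6% of those tested) and 1430 were lower (9.78%), by edgeR's quasi-likelihood test at a Benjamini-Hochberg adjusted p under 0.05. In 6789 genes (46.4%) the 3 values at 25°C did not overlap with the 3 values at 20°C. Without replicate 2 at 20°C, 3039 genes were higher and 1261 lower. The 2 directions differed in kind. Among the higher genes the median log2 fold change was 1.12 and 1804 genes changed by at least 1 on the log2 scale, while their median level was 3.27 RPM at 25°C against 1.45 RPM at 20°C. Among the lower genes the median log2 fold change was -0.43 and 185 genes reached that size, with a median level of 22.9 RPM at 25°C against 31.01 RPM at 20°C. Of the higher genes, 919 lay under 1 RPM at both temperatures, and 141 had no count in any 20°C library, whereas none of the lower genes had no count in every 25°C library. DESeq2, run on the same genes with its own size factors, made 54.5% of its calls in the higher direction (2778 higher and 2317 lower), against 69.8% with edgeR. With the fit restricted to wild-type libraries the share was 55.9%, and with at least 10 counts required in every library it was 58.2%. At a mean of 10 RPM or more in the higher group, edgeR's calls were about even, with 1009 higher genes of median log2 fold change 0.58 and 1022 lower genes of median -0.37.

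**Figure D1:**
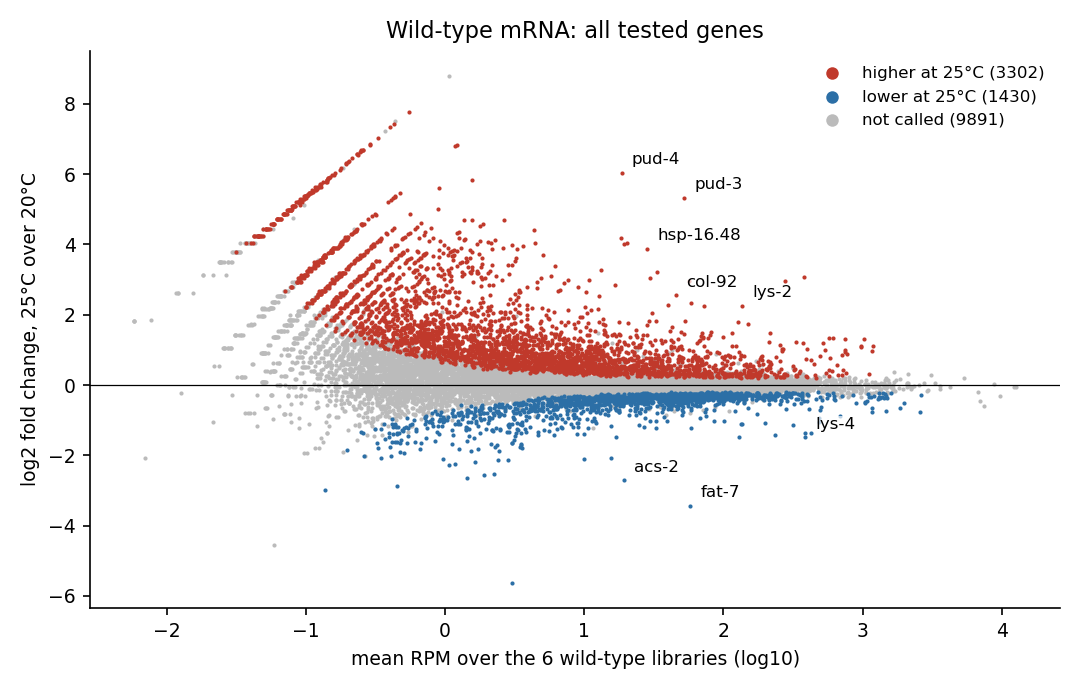
Log2 fold change at 25°C over 20°C against the mean level over the 6 wild-type libraries (RPM, log10 scale) for each tested gene except 5 with no count in these libraries, with genes called higher in red and lower in blue. The red cloud reaches far up at low levels, where diagonal stripes are genes with 0 or a few counts at 20°C, and the genes with large falls, such as fat-7 and acs-2, are few.

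The inducible heat shock genes were raised and the chaperones that every cell uses were not. Of 8 inducible genes, all tested, 6 were higher and none lower (background 22.6% and 9.78%), and their median log2 fold change was 3.96, against 0.09 over all tested genes. The filter on low counts was set over all 12 mRNA-seq libraries. With only the wild-type libraries, 6 could be tested and 6 were higher. With at least 10 counts required in every library, 2 could be tested and 2 were higher. Most members thus passed through libraries in which they are high, and some are near-identical copies, so the count gives no support of its own. The summed level of all 8 was 91.1, 100.8 and 110.8 RPM in the libraries at 25°C, against 8.27, 9.05 and 5.78 RPM at 20°C, a 13.1-fold difference with no overlap. The promoter windows of the hsp-16 pairs and of the Hsp70 gene F44E5.5 are shown because their heat shock elements can be read directly. Each is the sequence up to 250 bases before the annotated gene start, from RefSeq on WBcel235, with matches to a heat shock element in capitals (TTC, GAA and TTC, each separated by any 2 bases, on either strand).
hsp-16.48, chrV:9087881-9088130, plus strand: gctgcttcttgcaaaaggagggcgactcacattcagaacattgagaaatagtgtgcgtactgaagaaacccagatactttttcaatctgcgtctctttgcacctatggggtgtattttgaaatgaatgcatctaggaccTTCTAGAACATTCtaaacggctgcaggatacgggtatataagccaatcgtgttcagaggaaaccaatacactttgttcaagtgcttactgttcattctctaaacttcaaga
hsp-16.2, chrV:1804958-1805177, minus strand: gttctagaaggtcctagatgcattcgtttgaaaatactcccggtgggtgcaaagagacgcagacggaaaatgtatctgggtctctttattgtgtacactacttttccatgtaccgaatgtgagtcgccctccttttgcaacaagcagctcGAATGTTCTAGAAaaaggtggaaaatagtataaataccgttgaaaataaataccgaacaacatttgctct
F44E5.5, chrII:11759412-11759661, plus strand: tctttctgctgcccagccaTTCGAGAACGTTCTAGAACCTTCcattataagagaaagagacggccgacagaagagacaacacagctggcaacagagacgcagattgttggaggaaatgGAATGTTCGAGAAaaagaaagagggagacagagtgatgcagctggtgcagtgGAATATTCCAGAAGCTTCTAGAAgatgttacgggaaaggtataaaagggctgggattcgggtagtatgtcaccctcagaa
The element ended 98 bases before the start of hsp-16.48 and 57 bases before that of hsp-16.2, whose window is 220 bases long because it stops at the neighbouring gene hsp-16.41, and F44E5.5 held 7 matches, several of them overlapping. In windows of a full 250 bases, not stopped at a neighbour, all 8 inducible genes had at least 1 match (2 for hsp-16.2), against 228 of 14010 windows of tested protein-coding genes (1.63%). These 8 windows are not separate. The divergent genes hsp-16.2 and hsp-16.41 share the bases between them, and the windows of hsp-16.1 and hsp-16.48 overlap and share an element. Other members are near-identical copies, so some elements are counted more than once. The share of windows with a match was no larger among all genes that were higher at 25°C (41 of 3182, 1.29%) than among those that were lower (25 of 1363, 1.83%). Annotated starts can be trans-splice sites rather than transcription starts, and a match is a description of the letters only.

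Among the members, hsp-16.48, a small heat shock protein that holds unfolded proteins, had 47.4, 53.6 and 57.5 RPM at 25°C, against 3.86, 4.09 and 2.81 RPM at 20°C. Its log2 fold change was 3.88 ± 0.13 (SE, n = 3 each; edgeR adjusted p = 1.22e-11). Its divergently transcribed neighbour hsp-16.1 had 33.8, 36.5 and 38.3 RPM at 25°C, against 2.45, 2.91 and 1.36 RPM at 20°C (log2 fold change 4.03 ± 0.17). In both genes the lowest library at 25°C lay far above the highest at 20°C. The near-identical copy hsp-16.49 has no entry in the counts used here, so whether the hsp-16.48 values also hold its reads cannot be told. hsp-16.1 shares a run of 490 identical bases with hsp-16.11, between which reads cannot be told apart, and both together were 16.53-fold higher. The second divergent pair had few counts, hsp-16.41 with 2.49, 2.46 and 2.96 RPM at 25°C against 0.150, 0.108 and 0.0413 RPM at 20°C, a ratio of summed counts of 27.6 (95% interval 12.5 to 76.1, for counting error only). hsp-16.2, the best known heat shock reporter gene, had 2.21, 1.83 and 1.94 RPM at 25°C, against 0, 0.108 and 0.248 RPM at 20°C, a ratio of 15.5 (95% interval 7.67 to 36.6). hsp-70, the stress-inducible Hsp70, had 1.153, 1.05 and 1.08 RPM at 25°C against 0.0501, 0.377 and 0.165 RPM at 20°C, a ratio of 5.71 (95% interval 3.10 to 11.5, edgeR adjusted p = 6.89e-04). F44E5.5 had 4.01, 3.30 and 7.25 RPM at 25°C against 1.75, 1.40 and 1.16 RPM at 20°C, an edgeR call (adjusted p = 0.039) that held in 6 of 13 alternative settings, and it shares 2155 identical bases with F44E5.4.

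The constitutive chaperones showed nothing of this size. The constitutive Hsp70 gene hsp-1 had 3363, 3272 and 3548 RPM at 25°C, against 2913, 3260.2 and 3572 RPM at 20°C (log2 fold change 0.05 ± 0.08), and hsp-90 differed by -0.03 ± 0.08. hsf-1 itself, which encodes the transcription factor, differed by -0.11 ± 0.08 (SE, n = 3 each; edgeR adjusted p = 0.31). Of 26 constitutive chaperones, none were higher and 4 were lower (15.4%, against 9.78% of all tested genes). Among these 4 were the prefoldin subunits pfd-5 (log2 fold change -0.45 ± 0.09) and pfd-6 (-0.40 ± 0.09). The summed level of all 26 was 13620 RPM at 25°C against 13599 RPM at 20°C. Of 17 genes of protein folding in the endoplasmic reticulum, 2 were higher (11.8%, against 22.6% of all tested genes). They were xbp-1, which encodes the transcription factor of the unfolded protein response (log2 fold change 0.47 ± 0.08), and the co-chaperone gene dnj-7 (0.41 ± 0.08). Of 8 small heat shock genes outside the hsp-16 family, 3 were higher, such as hsp-43 (log2 fold change 0.45 ± 0.11), and 1 was lower, hsp-12.6, at under 1 RPM in every library (-1.13 ± 0.38, called in 7 of 11 alternative settings).

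**Figure D2:**
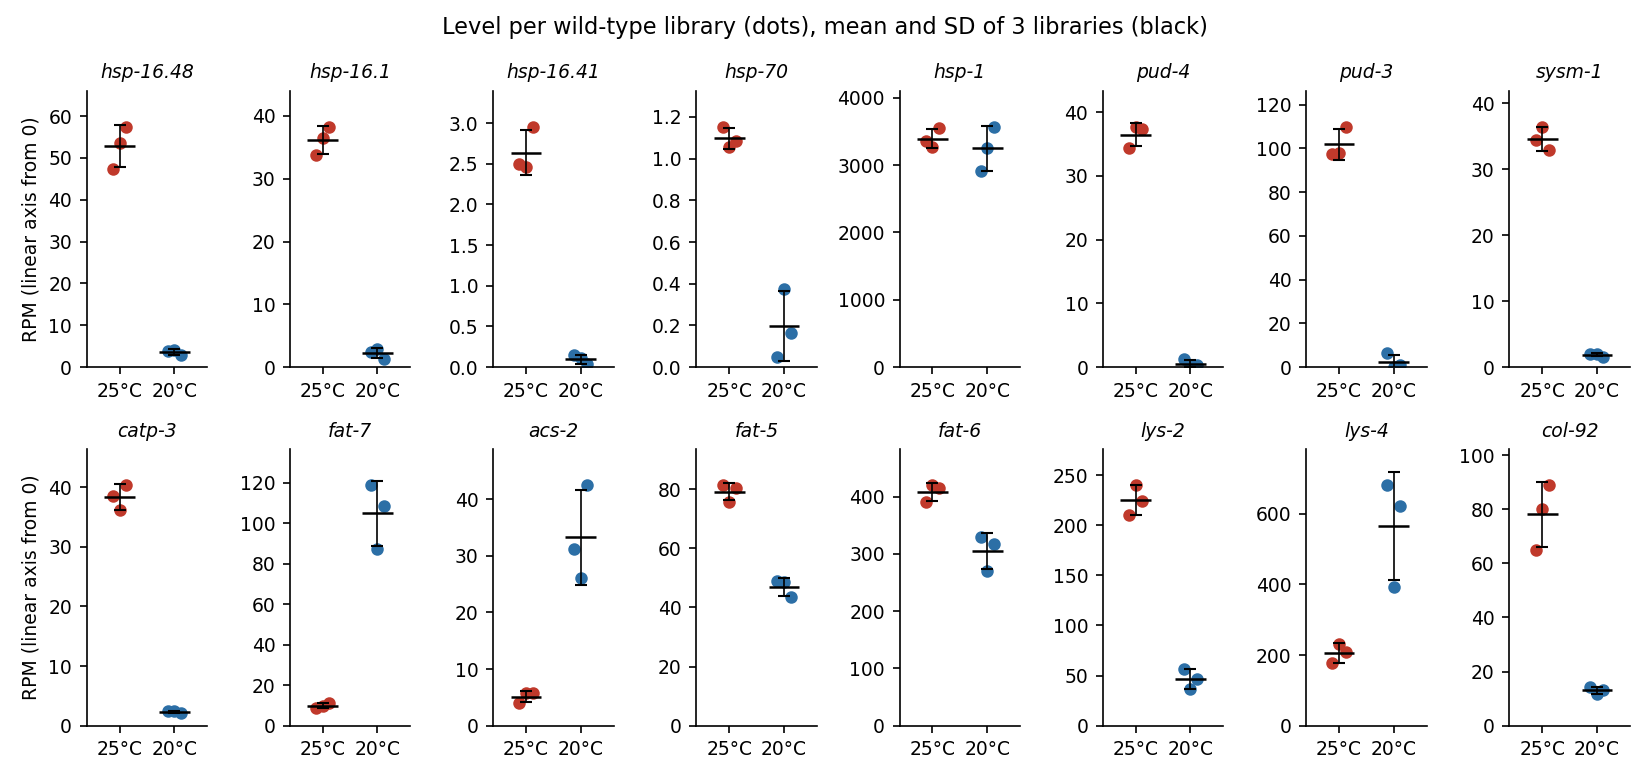
Level (RPM, linear axes from 0) of 16 genes in each wild-type library at 25°C (left) and 20°C (right), with the mean and SD of 3 libraries. The hsp-16 genes, the pud genes, sysm-1, catp-3, lys-2 and col-92 lie higher at 25°C with no overlap, fat-7, acs-2 and lys-4 lie lower, and hsp-1 overlaps between the temperatures.

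The largest rises among called genes over 10 RPM were in the pud genes, a small nematode family of unknown function named after proteins up-regulated in the insulin receptor mutant daf-2. pud-4 had 34.4, 37.7 and 37.3 RPM at 25°C, against 1.202, 0.162 and 0.289 RPM at 20°C (log2 fold change 6.04 ± 0.34, SE, n = 3 each; edgeR adjusted p = 6.53e-08). pud-3 had 97.6, 98.1 and 109.96 RPM at 25°C, against 6.26, 0.269 and 1.07 RPM at 20°C (log2 fold change 5.33 ± 0.57). In both genes the libraries at 25°C were close to each other and the libraries at 20°C were spread, replicate 1 being the highest. The same held for pud-1.1, with 483, 482 and 509 RPM at 25°C against 131, 21.1 and 38.5 RPM at 20°C (2.96 ± 0.57), and for pud-2.2 (3.08 ± 0.51), which was named after its values were seen. All 5 tested members were higher, and together they gave 1253, 1339 and 1402 RPM at 25°C, against 299.7, 51.9 and 94.3 RPM at 20°C. With only the wild-type libraries and the replicate number as a block, 1 of the 5 was called. The copies pud-1.1 and pud-1.2 share 502 identical bases and were 7.83-fold higher in sum. None of the 5 windows before these genes held a heat shock element. In 4 of the 5 windows TGATAA was found, a core that GATA factors of the intestine bind. These 4 include the windows of the copies pud-1.1 and pud-1.2. TGATAA was found in 27.4% of all windows of tested genes, 33.5% of those of higher genes and 40.7% of those of sperm genes. The window of pud-4 is shown because it lies before the gene with the largest change, with its TGATAA in capitals.
pud-4, chrV:2326428-2326677, plus strand: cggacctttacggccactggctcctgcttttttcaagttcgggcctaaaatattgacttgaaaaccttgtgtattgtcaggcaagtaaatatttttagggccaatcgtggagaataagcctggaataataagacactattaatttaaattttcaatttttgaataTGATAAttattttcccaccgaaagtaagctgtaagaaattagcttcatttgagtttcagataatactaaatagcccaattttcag

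Other genes with large rises had tight replicates. sysm-1 had 34.5, 36.5 and 32.9 RPM at 25°C against 2.00, 2.05 and 1.61 RPM at 20°C (log2 fold change 4.19 ± 0.13). catp-3, which encodes a cation-transporting ATPase, had 38.6, 36.1 and 40.3 RPM at 25°C against 2.40, 2.42 and 2.11 RPM at 20°C (4.04 ± 0.14). Both had no overlap between temperatures and were called in all 14 alternative settings. The uncharacterised genes F01D5.1 (3.37 ± 0.17) and H11L12.1 (3.23 ± 0.14) followed. In the other direction the lowest log2 fold change of the called genes belonged to F54E4.2, an X-linked gene named after its values were seen because it lies under 10 RPM, with 0.0461, 0.246 and 0.0374 RPM at 25°C against 5.86, 5.87 and 5.95 RPM at 20°C (log2 fold change -5.62 ± 0.29, SE, n = 3 each; edgeR adjusted p = 1.85e-09).

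Genes of sperm were higher in the libraries at 25°C, with few counts at 20°C. The major sperm proteins form the cytoskeleton with which the worm's amoeboid sperm crawl. Summed over all 35 members of the list, their mRNA was 58.6, 77.5 and 94.4 RPM at 25°C, against 6.48, 7.76 and 8.28 RPM at 20°C, a 10.2-fold difference with no overlap. The small sperm proteins gave 40.3, 54.7 and 67.6 RPM at 25°C against 10.5, 8.24 and 11.6 RPM at 20°C. The third list, of sperm function genes, gave 243.1, 239.0 and 249.8 RPM at 25°C against 182.5, 197.1 and 196.1 RPM at 20°C, a 1.27-fold difference. Within the first 2 of these sums replicate 1 was the lowest of the libraries at 25°C. Of the genes in 3 sperm lists, 87 passed the filter on low counts, which was set over all 12 mRNA-seq libraries including those of *mut-16* mutants, where these genes were more abundant, and 73 of these 87 were higher and none lower. Since many passed only through libraries in which they are high, the count gives no support of its own. With at least 10 counts required in every library, 13 could be tested and 8 were higher.

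Values of single sperm genes varied in size. ssp-35, a small sperm protein gene, had 0.877, 1.44 and 1.65 RPM at 25°C, against 0.0501, 0.162 and 0.0826 RPM at 20°C (log2 fold change 3.72 ± 0.39). msp-36, named after its values were seen, had 3.98, 5.70 and 5.04 RPM at 25°C against 0.115, 0.544 and 0.321 RPM at 20°C. alg-3 and alg-4, the Argonautes that spermatogenesis needs at elevated temperature, differed by 2.66 ± 0.42 and 2.57 ± 0.67 on the log2 scale, and gsp-3, a sperm phosphatase gene, by 2.32 ± 0.36. Other genes of spermatogenesis were well detected at both temperatures. spe-15, an unconventional myosin, had 15.1, 15.9 and 16.7 RPM at 25°C against 5.56, 5.49 and 6.48 RPM at 20°C (1.42 ± 0.16). spe-44, a transcription factor of the sperm programme, had 21.3, 21.1 and 22.2 RPM at 25°C against 17.2, 20.5 and 21.2 RPM at 20°C, which did not pass the test. In whole animals, more cells of a type and more RNA per cell cannot be told apart, here and in the results that follow.

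Markers of males, whose germline makes only sperm, were read beside these values. Of 11 such genes, 4 could be tested and 1 was higher (mab-3), and their summed level was 12.0, 6.08 and 6.39 RPM at 25°C, against 16.7, 26.9 and 7.39 RPM at 20°C. Most of this was plg-1, the mating plug gene, with 11.07, 4.88 and 5.12 RPM at 25°C against 16.13, 26.01 and 6.52 RPM at 20°C, and each of the other 10 had at most 0.7104 RPM in any library. The sum therefore follows plg-1 and says little of the other 10. Among these, mab-3 had 0.5536, 0.5268 and 0.7104 RPM at 25°C against 0.2505, 0.2154 and 0.2477 RPM at 20°C. In contrast, her-1 had 0.0461, 0.0351 and 0.1869 RPM at 25°C against 0.2004, 0.1616 and 0.2477 RPM at 20°C. Of the defining markers, cwp-2 and cwp-3 were at 0 in all 6 libraries, and pkd-2 had 0.0923, 0.0702 and 0.0748 RPM at 25°C against 0, 0 and 0.0413 RPM at 20°C. Their part in the sperm values was not tested. Of 19 genes of the switch from sperm to oocytes, none were higher and 1 was lower (5.26%, against 9.78% of all tested genes). fem-3, which promotes sperm, had 113, 121 and 117 RPM at 25°C against 102, 114 and 98.1 RPM at 20°C (log2 fold change 0.14 ± 0.08, edgeR adjusted p = 0.19).

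**Figure D3:**
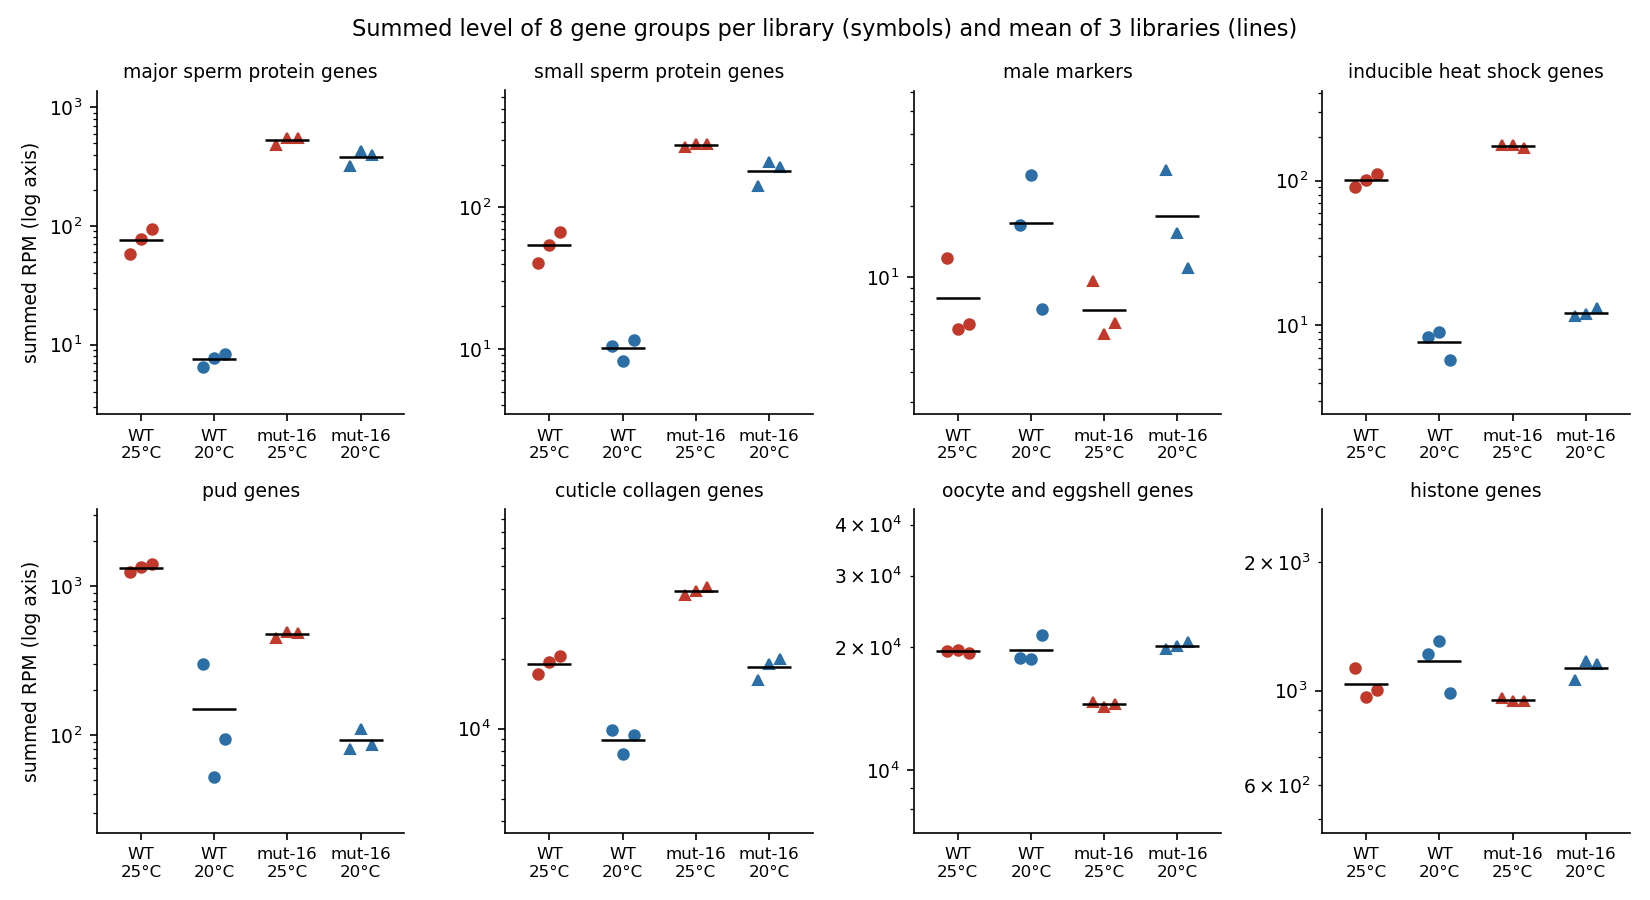
Summed level (RPM, logarithmic axis) of 8 gene groups in each mRNA-seq library, with wild-type at 25°C and 20°C on the left and *mut-16* mutants at 25°C and 20°C on the right of each group. The major sperm protein sum of wild-type libraries is 58.6 to 94.4 RPM at 25°C and 6.48 to 8.28 RPM at 20°C, and in *mut-16* libraries it is at least 317.7 RPM at both temperatures.

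Genes of oocytes, meiosis and P granules changed little. Of 31 oocyte and eggshell genes, 1 was higher and 3 were lower (3.23% and 9.68%, against 22.6% and 9.78% of all tested genes). Their median log2 fold change was -0.03. rme-2, the yolk receptor of oocytes, had 1243, 1250.3 and 1249 RPM at 25°C, against 1058, 1215 and 1335 RPM at 20°C, which overlap, and the oocyte maturation gene oma-1 differed by 0.03 ± 0.07. cpg-3, an eggshell proteoglycan, was lower (log2 fold change -0.40 ± 0.09). Of 32 meiosis genes, 3 were higher and 3 lower (9.38% each), such as him-8, which pairs the X chromosomes (-0.31 ± 0.07). Of 16 genes of P granules, the germline's RNA condensates, 2 were higher (12.5%): glh-1, a Vasa helicase, with 704, 676 and 693 RPM at 25°C against 463, 596 and 479 RPM at 20°C (0.41 ± 0.10), and pgl-1 (0.27 ± 0.08).

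Genes of the small RNA pathways, through which Argonaute proteins silence germline transcripts, moved little. Of 43 tested, 4 were higher and 3 lower. ppw-2, an Argonaute, had 271, 254 and 249 RPM at 25°C against 154, 161 and 164 RPM at 20°C (log2 fold change 0.67 ± 0.09), and prg-1, the Piwi protein of the germline, was also higher (0.44 ± 0.08). mut-16 itself, which builds the foci where small RNAs are amplified, had 127, 109 and 105 RPM at 25°C against 127, 117 and 118.5 RPM at 20°C and did not differ beyond the spread. Neither did hrde-1 (0.01 ± 0.10) or csr-1 (-0.07 ± 0.09), 2 Argonautes of the germline. Of 6 vitellogenin genes, which encode yolk protein made in the adult intestine, edgeR called none (1 was lower at an unadjusted p under 0.05) and DESeq2 called 2 lower. vit-2 had 12830, 11549 and 11655 RPM at 25°C against 12539, 10846 and 13686 RPM at 20°C. Of 35 early embryo genes, 6 were higher (17.1%) and 2 lower (5.71%), among them pal-1, a maternal homeobox gene (-0.27 ± 0.08).

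Many collagen genes of the skin rose. Cuticle collagens are secreted by the hypodermis and are replaced at each moult. Of 136 tested collagen genes, edgeR called 74 higher and none lower, and 62 did not pass (54.4% higher, against 22.6% of all tested genes), while DESeq2 called 71 higher and 1 lower. They had a median log2 fold change of 1.07. Their summed mRNA was 17105, 19379 and 20564 RPM at 25°C, against 9819, 7736 and 9346 RPM at 20°C, a 2.12-fold difference with no overlap. col-92 had 65.1, 80.2 and 88.96 RPM at 25°C against 14.4, 11.9 and 13.03 RPM at 20°C (log2 fold change 2.56 ± 0.13), and col-139 followed (2.34 ± 0.12). col-19, the standard marker of adult skin, had 878, 1044 and 1103 RPM at 25°C against 571, 418 and 496 RPM at 20°C (1.01 ± 0.11). The larval collagen genes dpy-7 and rol-6, which are read as each moult begins, had at most 0.299 RPM in any library. Of 15 genes of the moulting cycle, 4 were higher and 1 lower (26.7% and 6.67%, near the 22.6% and 9.78% of all tested genes). mlt-7, a peroxidase of the cuticle, had 13.8, 15.6 and 16.15 RPM at 25°C against 6.86, 6.73 and 5.41 RPM at 20°C (1.25 ± 0.11), while mlt-10 had 2.91, 2.99 and 3.10 RPM at 25°C against 4.26, 4.15 and 4.54 RPM at 20°C (-0.54 ± 0.15). Whether these values follow the age of the animals was not tested.

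Of 38 muscle genes, 10 were higher and 1 lower, which for higher genes (26.3%) is near the background of 22.6%, and DESeq2 called 5 lower. unc-52, the perlecan of the basement membrane under muscle, had 125, 108 and 115 RPM at 25°C against 40.8, 44.5 and 43.8 RPM at 20°C (log2 fold change 1.41 ± 0.27), and the integrin gene pat-2 was higher by 0.72 ± 0.16. The body wall myosin gene unc-54 overlapped between the temperatures, with 331, 238 and 263 RPM at 25°C against 327, 187 and 228 RPM at 20°C. Of 37 synaptic genes, 14 were higher (37.8%, against 22.6% of all tested genes) and 2 lower, but DESeq2 called 9 higher and 4 lower, and leaving out single libraries gave 8 to 12 higher. The 2 lower ones were rpm-1, a ubiquitin ligase of synapse formation (-0.70 ± 0.18), and unc-119 (-0.43 ± 0.10), and the widely used neuronal markers rab-3 (-0.11 ± 0.15) and snb-1 (-0.05 ± 0.10) were not called. Among 113 neuropeptide and insulin-like genes, 28 were higher (24.8%, near the background) and 5 lower, and ins-7, an insulin-like gene of the intestine and neurons, had 3.28, 3.34 and 3.55 RPM at 25°C against 0.651, 0.646 and 0.826 RPM at 20°C (2.22 ± 0.22).

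Both of the largest falls among called genes over 10 RPM, in fat-7 and acs-2, were in fat metabolism. Stearoyl-CoA desaturases put the first double bond into fatty acids, and membranes carry less unsaturated fat in the warmth. fat-7, one of 3 such enzymes, had 8.68, 9.84 and 11.0 RPM at 25°C, against 118.9, 87.2 and 109 RPM at 20°C, a 10.8-fold lower level (log2 fold change -3.43 ± 0.20, SE, n = 3 each; edgeR adjusted p = 8.58e-08). Its paralogues moved the other way. fat-6 had 391, 419.9 and 414 RPM at 25°C against 329, 269.5 and 316 RPM at 20°C (0.40 ± 0.10), and fat-5 had 81.3, 75.7 and 80.4 RPM at 25°C against 48.8, 48.7 and 43.4 RPM at 20°C (0.74 ± 0.14). Each of the 3 had no overlap between temperatures and was called in all 14 alternative settings. acs-2, an acyl-CoA synthetase that feeds fatty acids into mitochondria, had 3.97, 5.72 and 5.72 RPM at 25°C, against 31.2, 26.1 and 42.5 RPM at 20°C (-2.71 ± 0.20). nhr-49, the nuclear receptor that activates both fat-7 and acs-2, had 109, 108 and 114 RPM at 25°C against 97.7, 97.4 and 106 RPM at 20°C (0.12 ± 0.08, edgeR adjusted p = 0.26). paqr-2, a sensor of membrane fluidity, was lower by a small amount (-0.25 ± 0.08). Of 77 genes of fatty acid breakdown, 15 were higher (19.5%, against 22.6% of all tested genes) and 13 lower (16.9%, against 9.78%), and DESeq2 called 15 higher and 18 lower. They included acdh-2 (-1.22 ± 0.18) and the peroxisomal oxidase gene acox-1.3 (1.02 ± 0.13).

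In central carbon metabolism, edgeR called 9 of 36 genes higher and 1 lower, close to the background of 22.6% for higher genes, and DESeq2 called 6 higher and 8 lower. Leaving out single libraries gave 4 to 12 higher. The gene that edgeR called lower was pck-1, the gateway enzyme of gluconeogenesis, with 33.8, 35.9 and 37.8 RPM at 25°C against 63.8, 44.8 and 61.98 RPM at 20°C (log2 fold change -0.68 ± 0.13). tps-2, which makes trehalose, a sugar that protects worms against heat and drying, was higher (0.64 ± 0.08), as was the glycolytic gene gpd-2 (0.49 ± 0.14). Of 41 genes of mitochondrial respiration, 2 were higher and 3 lower (4.88% and 7.32%, against 22.6% and 9.78% of all tested genes). Examples are the complex I subunit gas-1 (0.57 ± 0.10) and the copper chaperone cox-17 (-0.56 ± 0.14).

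Cathepsin B genes of gut digestion fell, and immune effector genes changed in both directions. The cpr genes encode cathepsin B proteases that digest food in the intestinal lumen, and 6 of 7 were lower, or 4 to 7 when single libraries were left out. Their summed level was 2417, 2718 and 2633 RPM at 25°C, against 5312, 2946 and 4929 RPM at 20°C, replicate 2 at 20°C being closest to the libraries at 25°C. cpr-5 had 123, 123 and 134 RPM at 25°C against 364, 242 and 411 RPM at 20°C (log2 fold change -1.43 ± 0.14), and cpr-8 fell by a like amount (-1.39 ± 0.12). Of 11 aspartyl protease genes of the asp family, 5 were lower and none higher (background 9.78% for lower genes), or 3 to 7 lower when single libraries were left out. Their summed level overlapped between the temperatures, at 4818, 5781 and 5674 RPM at 25°C against 7738, 4824 and 8056 RPM at 20°C. Among 191 immune effector genes, 63 were higher and 25 lower (33.0% and 13.1%, against 22.6% and 9.78% of all tested genes). With only the wild-type libraries 136 of them were tested, and 38 were higher and 25 lower. In that fit 2377 of all 12606 tested genes were higher and 1873 lower. Lysozymes, which cut bacterial cell walls, split. lys-2 had 210.3, 240.0 and 224 RPM at 25°C against 56.3, 36.4 and 46.9 RPM at 20°C (2.26 ± 0.11), and lys-4 had 177, 232 and 208 RPM at 25°C against 681, 393 and 621 RPM at 20°C (-1.47 ± 0.27). The C-type lectin genes split too, 39 of 118 being higher and 13 lower, and clec-10 had 7.84, 9.76 and 9.46 RPM at 25°C against 22.2, 23.2 and 29.5 RPM at 20°C (-1.49 ± 0.14). irg-5, a gene induced by infection, was higher by 3.05 ± 0.14.

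Detoxification genes rose in larger part. Of 146, 66 were higher and 9 lower (45.2% and 6.16%, against 22.6% and 9.78% of all tested genes). The UDP-glucuronosyltransferases, which attach sugars to foreign compounds, gave 37 of 57 higher, against 15 of 54 cytochrome P450 genes and 14 of 35 glutathione S-transferase genes. cyp-14A5, a cytochrome P450, had 18.3, 21.4 and 21.4 RPM at 25°C against 4.66, 4.90 and 4.09 RPM at 20°C (log2 fold change 2.15 ± 0.12), and ugt-43 had 10.7, 10.7 and 10.2 RPM at 25°C against 2.86, 3.34 and 2.89 RPM at 20°C (1.78 ± 0.13). gst-4, a reporter of oxidative stress, was higher (0.93 ± 0.11). Of 38 stress defence genes, a list that includes the pud genes, 15 were higher (39.5%) and 2 lower (5.26%). sod-3, a superoxide dismutase and target of DAF-16, had 6.18, 6.11 and 6.13 RPM at 25°C against 3.96, 4.25 and 3.63 RPM at 20°C (0.62 ± 0.15), while the metallothionein mtl-2 had 17.1, 19.9 and 21.6 RPM at 25°C against 50.9, 31.8 and 35.96 RPM at 20°C (-1.03 ± 0.14).

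Genes of protein synthesis, protein degradation and chromatin tended to lie lower at 25°C by small amounts. Of 84 ribosomal protein genes, 17 were lower and 1 higher (20.2% and 1.19%, against 9.78% and 22.6% of all tested genes). Their median log2 fold change was -0.08, and their summed level was 97997, 100474 and 101429 RPM at 25°C against 107981, 109609 and 105099 RPM at 20°C. rpl-41.2 differed most, with 1748, 2039 and 2009 RPM at 25°C against 3652, 2911 and 3128 RPM at 20°C (log2 fold change -0.76 ± 0.12). Of 33 proteasome genes, none were higher and 9 were lower (27.3%), such as pas-5 (-0.41 ± 0.09), a subunit of the catalytic core. DESeq2 called 8 constitutive chaperones, 7 oocyte and eggshell genes and 6 genes of mitochondrial respiration lower, more than edgeR did. It also called 36 ribosomal protein genes and 23 proteasome genes lower, so that these counts depend on the tool, and leaving out single libraries gave 5 to 12 proteasome genes. Of 53 histone genes, 22 were lower (41.5%) and 4 higher (7.55%) with a median of -0.56, and leaving out single libraries gave 12 to 27 lower. his-67 had 5.07, 4.49 and 5.25 RPM at 25°C against 13.4, 14.5 and 10.4 RPM at 20°C (-1.38 ± 0.15), and his-41 was higher (0.76 ± 0.10). Most histone mRNAs of cycling cells carry no poly(A) tail, so that poly(A) selection reads only part of them. Among 304 F-box and MATH-BATH genes, adaptors of ubiquitin ligases, 61 were higher and 36 lower, close to the background.

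**Figure D4:**
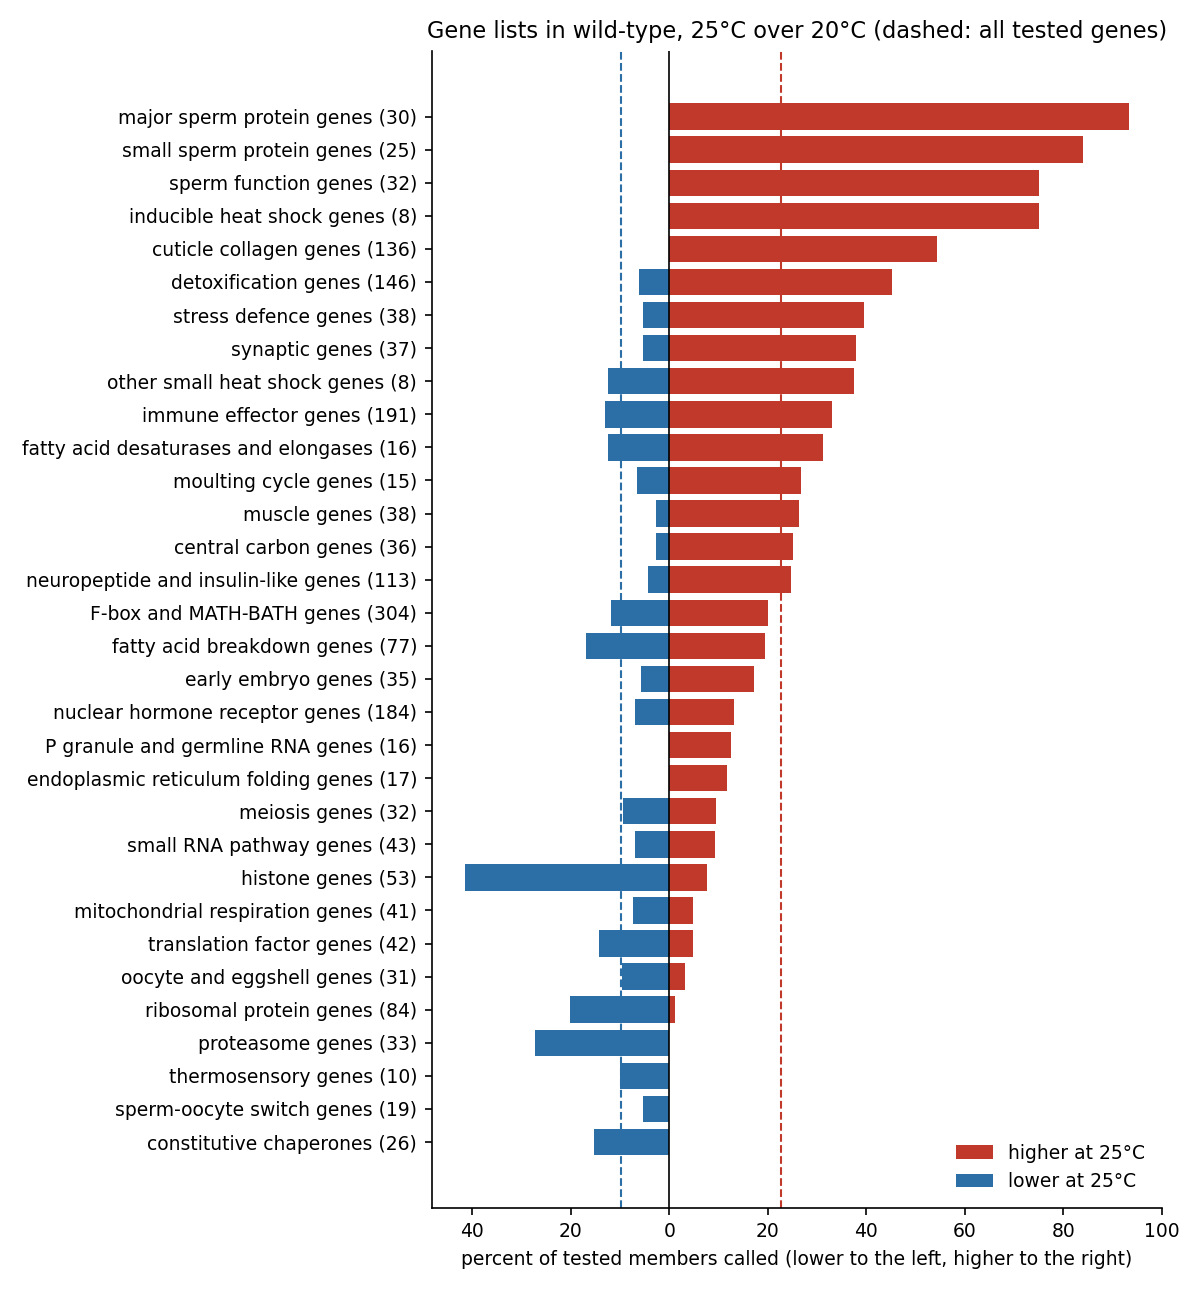
Percent of tested members of each gene list called higher (red, right) or lower (blue, left) at 25°C, with the number tested in brackets and dashed lines at 22.6% and 9.78% for all tested genes. Lists with at least 8 tested members are drawn. Sperm lists, inducible heat shock genes and collagens extend furthest to the right, and histone and proteasome genes furthest to the left. Many sperm genes and inducible heat shock genes passed the filter on low counts only through libraries in which they are high, so their bars give no support of their own.

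The genes that changed were spread over the genome. By chromosome, 16.8% (III) to 26.99% (V) of tested genes were higher, and 8.92% (I) to 10.8% (X) were lower.

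Small RNAs that map to each gene were sequenced from the same groups, and give a second readout. Of 16025 genes tested for them, 3238 had more small RNAs at 25°C (20.2%) and 2729 had fewer (17%). With total counts as the scaling the balance turned, at 2603 with more and 3677 with fewer. Among the 12421 genes tested in both assays, 2658 had higher mRNA, and of these 836 had more small RNAs (31.5%) and 278 fewer (10.5%). Of 1294 genes with lower mRNA, 195 had more small RNAs (15.1%) and 293 fewer (22.6%), and among genes whose mRNA was not called the shares were 19.2% and 19.8%. The overlap of higher mRNA with more small RNAs made up 25.3% of the mRNA list and 25.8% of the small RNA list. Of 85 sperm genes in this readout, 41 had more small RNAs and 2 fewer. The small RNA libraries at 25°C were uneven in depth, from 4760502 to 19060841 counts.

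**Figure D5:**
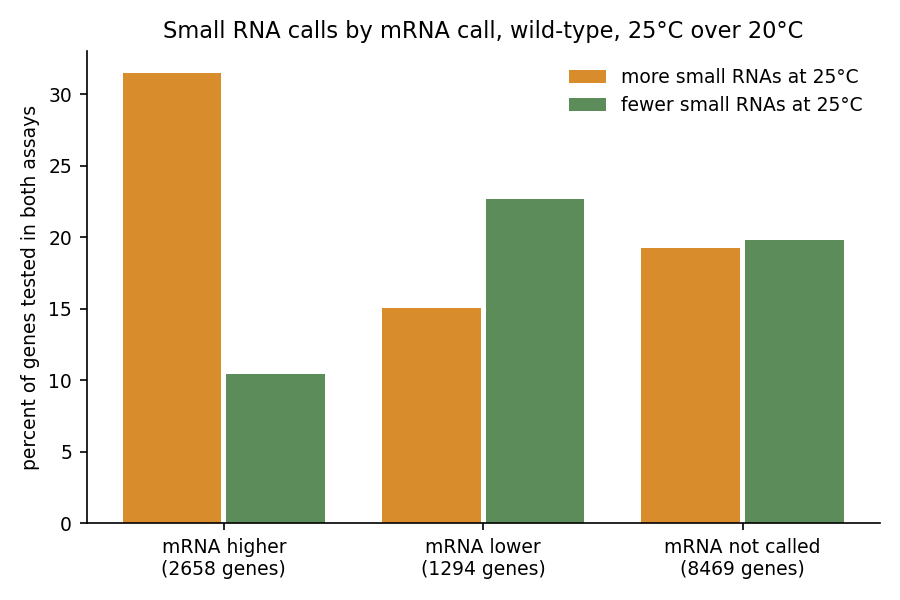
Percent of genes with more (orange) or fewer (green) small RNAs at 25°C, for genes whose mRNA was higher, lower or not called at 25°C in wild-type, over genes tested in both assays. The orange bar is 31.5% for higher mRNA and 15.1% for lower mRNA, and the green bar is 10.5% and 22.6%.

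To see which of these changes also occurred without MUT-16, the response of *mut-16* mutants (3 libraries at 25°C and 3 at 20°C) was set against that of wild-type animals by testing the difference between the log2 fold changes. Over all tested genes the mutant response lay above that of wild-type in 1418 (9.7%) and below it in 3129 (21.4%). Of the 3302 genes that were higher in wild-type animals, 2763 were called higher in *mut-16* too, where 40.2% of tested genes were higher, and 886 differed between the genotypes (26.8%), 667 of them with a smaller or opposite response in *mut-16*. Of the 1430 lower genes, 953 were called lower in *mut-16*, where 32.3% of tested genes were lower. None of the 8 inducible heat shock genes passed the test of the difference, with a summed level in *mut-16* of 174 RPM at 25°C against 12.24 RPM at 20°C. The pud genes had summed levels of 474 RPM at 25°C against 91.9 RPM at 20°C in the mutant. In *mut-16* libraries all members of the major sperm protein list summed to 527 RPM at 25°C against 379.8 RPM at 20°C, both above the wild-type sums. Of the 35 members, 30 passed the filter on low counts in the main fit and 27 did so with only the wild-type libraries. With at least 10 counts required in every library 1 passed. Most thus passed through groups in which they are high, so no count of them is read.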

How the data were processed

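mRNA-seq files of 6 wild-type libraries were compared, and the 6 *mut-16* libraries entered the same fit. Per the authors' methods, reads were trimmed with Cutadapt and assigned to the WS258 transcriptome with Salmon, so the deposited values are expected counts (estimated counts) per transcript entry, not normalized. Program versions are not given in the sources used here. The values of 1060 gene names with several entries among 46970 were summed to 45904 names, of which 45648 matched the WBcel235 annotation, and were rounded to whole numbers. Salmon divides reads between near-identical copies, so single copies are uncertain. No strand setting was given in the sources used here, so overlapping and antisense genes may share reads.

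Genes passing filterByExpr (14623) were fitted with edgeR 4.0.16 (R 4.3.3), TMM scaling and the robust quasi-likelihood test with 1 coefficient per group over all 12 libraries. Changes with an adjusted p under 0.05 were called. A standard error is the absolute log2 fold change over the square root of the F statistic. Ratios of low summed counts carry exact 95% intervals that cover counting error only. On simulated data for this comparison (14018 genes), 100 of 100 genes raised and 100 of 100 genes lowered 3-fold were recovered, and 12 other genes were called. The changed genes were drawn from those averaging at least 100 counts, with the spread between libraries fixed (dispersion 0.03). Recovery of smaller changes, or of changes in genes with fewer counts, was not simulated. DESeq2 1.42.0, other filters, scalings, fits and thresholds, and leaving out each library were alternatives, 14 of them giving a value per gene for wild-type mRNA. Figures were drawn with matplotlib 3.10.9.

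The members and lists were chosen with earlier results of these data known. Named genes are the 10 largest rises and 10 largest falls among called genes whose temperatures did not overlap and whose higher group averaged 10 RPM or more, the 3 largest changes and the key members of each of 35 lists, and genes with primers in the study, not all of which are printed. The letters RE in the titles of all these libraries but 1 at 20°C are not explained in the sources used here and were tried as a covariate.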

Additional observations from a re-analysis of the deposited data

Results flagged for a closer look

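Each result here was singled out because the response to 25°C differed between *mut-16* mutants and wild-type animals by edgeR's test of the difference itself (adjusted p under 0.05). Over genes that changed in wild-type, 1298 did so, which is no excess. The share was 26.8% where wild-type mRNA rose, 28.8% where it fell and 32.8% where it was not called. The values that follow are the log2 fold change in *mut-16* minus that in wild-type.

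Single sperm genes named in the report had a smaller log2 fold change in the mutant, by -3.465 for msp-36, -2.204 for ssp-35, -1.90 for alg-3, -1.89 for gsp-3, -0.68 for spe-15 and -0.58 for spe-44. This need not be a smaller rise in RPM. At 20°C the 3 sperm lists summed to 819 RPM in *mut-16* against 209.5 RPM in wild-type. alg-3 had a mean of 8.27 RPM at 25°C against 4.00 RPM at 20°C in *mut-16*, and 1.22 against 0.191 RPM in wild-type. The pud genes pud-4 (-2.99) and pud-3 (-2.41) also had smaller log2 fold changes. Germline genes that changed by at most 0.41 on the log2 scale in wild-type lay lower in the mutant contrast, with -1.005 for the yolk receptor rme-2, -0.72 for oma-1, -0.60 for cpg-3, -0.71 for fem-3, -0.87 for glh-1 and -0.81 for pgl-1. The Argonaute genes ppw-2 (-1.099), hrde-1 (-0.97), prg-1 (-0.83) and csr-1 (-0.76) did so too. So did the chaperone genes hsp-1 (-0.85), hsp-90 (-0.76) and hsp-43 (-0.45), and hsf-1 (-0.40). Negative values were common among genes of other kinds. Over all tested genes 3129 lay below wild-type and 1418 above. Of 84 ribosomal protein genes, 63 lay below, and cdc-42 had -0.42. How much of the smaller negative values, here and in the next paragraph, is shared by many genes was not tested.

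Skin genes had smaller log2 fold changes, with -1.15 for col-92, -0.93 for col-139 and -0.50 for mlt-7. The same held for H11L12.1 (-1.25), cyp-14A5 (-1.22), catp-3 (-0.82) and acox-1.3 (-0.71). In RPM, col-92 had a mean of 334 at 25°C against 102 at 20°C in *mut-16*, and 78.1 against 13.1 in wild-type. Values above those of wild-type were found for fat-7 (1.35), clec-10 (1.13) and cpr-5 (0.61), which fell in wild-type, and for irg-5 (0.82) and gst-4 (0.65), which rose. The neuronal genes rab-3 (0.99) and unc-119 (0.59) lay above wild-type as well.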

How the results depend on the processing

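No called gene named here changed sign in any setting. Medians near 0, such as that of the oocyte and eggshell genes, did. Of genes that were not called, hsp-1, hsp-90, hrde-1, rme-2, oma-1, unc-54, vit-2 and snb-1 changed sign in at least 1 setting, and the balance of more against fewer small RNAs turned with total counts as the scaling (2603 against 3677). Genes higher at 25°C numbered 3302, and 1880 when each library had to hold 10 counts, 2150 with only the wild-type libraries and the replicate block, and 1804 when a log2 change of 1 or more was required. Genes lower at 25°C numbered 1430, and 2317 with DESeq2, 705 at an adjusted p under 0.01 and 185 at that size of change. Leaving out single libraries gave 2651 to 3039 higher and 941 to 1359 lower genes, the lowest being without replicate 3 at 25°C, and 2245 higher genes and 720 lower genes were called without each of the 6 libraries in turn. Genes whose response differed between genotypes numbered 4547, and 1972 at an adjusted p under 0.01 and 1135 at a difference of at least 1. Genes with more small RNAs numbered 3238, and 2013 with the filter of 10 counts, 2149 at an adjusted p under 0.01 and 1646 at a log2 change of 1 or more, and those with fewer numbered 2729, and 1076 at that size of change. Replicate numbers did not pair the libraries (correlations of -0.07, -0.08 and 0.02 between same-numbered libraries). With the replicate block over all libraries, 3269 genes were higher, 1402 lower and 4530 differed between genotypes, and 2998 had more and 2529 fewer small RNAs. Stricter thresholds and filters lower counts by construction, and the cause of the other differences was not tested. The rises of pud-1.1, pud-1.2, pud-2.2 and pud-3 were not called with only the wild-type libraries and the replicate block. Low counts limit the sperm genes and the less abundant heat shock genes.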
